A study of Mus musculus with 8 samples.

Results

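The epidermal lipoxygenase pathway was examined as 9 genes of the deposited count table, out of 55416 Ensembl genes in all. They are the 7 lipoxygenase genes Alox12b, Aloxe3, Alox12e, Alox8, Alox12, Alox15 and Alox5, together with Sdr9c7 and Ephx3, whose enzymes work on the products of the first pair. The members were chosen by name, as the rows whose identifiers carry these symbols in the GENCODE mouse annotation, without a threshold on any measured value. RNA-seq was performed on dorsal epidermis of mice at postnatal day 4, with 4 libraries labelled wild type (control: A1, B1, C1 and C6) and 4 labelled as an epidermis knockout of Rora (RoraEKO: A3, B4, C2 and C3). Per the study's methods, the RoraEKO mice carried floxed Rora alleles and a Cre transgene driven by the keratin 14 promoter, which is active in basal keratinocytes and their descendants, and the epidermis was peeled off dorsal skin after a brief heat treatment. Of the 9 members, 8 had enough counts to be tested for a difference between the genotypes, and Alox12e was the member that passed the cutoffs.

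Lipoxygenases add oxygen to polyunsaturated fatty acids. In the upper epidermis, 12R-lipoxygenase (Alox12b) oxidises linoleate that is esterified in acylceramides, the ceramides with a very long omega-hydroxy fatty acid, and eLOX3 (Aloxe3) converts the hydroperoxide into an epoxy alcohol. Sdr9c7, a short-chain dehydrogenase, then oxidises the epoxy alcohol to a ketone, and Ephx3, an epoxide hydrolase, can open the epoxide. This chain is needed to bind ceramides covalently to the cornified envelope, and inherited loss of Alox12b, Aloxe3 or Sdr9c7 function causes congenital ichthyosis in humans. The other members are S-lipoxygenases. Alox12e encodes the epidermal type of 12S-lipoxygenase, Alox12 the platelet type, Alox8 the mouse 8S-lipoxygenase, Alox15 the leukocyte type of 12/15-lipoxygenase, and Alox5 the enzyme that starts leukotriene synthesis.

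The libraries held 17286903 to 26705533 counts each. The floor of detection was taken as 3 counts, a limit that covers counting error only. It corresponded to 0.112 to 0.174 per 1000000 counts of a library before TMM scaling. Levels in CPM are counts scaled to 1000000 per library with TMM factors, so the floor differs somewhat on that scale. Rora itself was at 211 ± 66.5 CPM in the control and 196 ± 34.6 CPM in the RoraEKO libraries (SD, n = 4 each; log2 fold change -0.11, edgeR quasi-likelihood test, adjusted p = 0.877). A total over the whole gene does not resolve the removal of an exon, so it does not check the genotype labels, and RoraEKO denotes the libraries so labelled throughout. Control C1 and C6 held Xist at 415 and 527 CPM and no Ddx3y, whereas the 6 remaining libraries held Ddx3y at 15.7 to 24.1 CPM and at most 0.0546 CPM of Xist. Xist lies on chromosome X and Ddx3y on chromosome Y, and both were read as a check on sex. Sex was therefore partly confounded with genotype, and results past the cutoffs are given also over the 6 libraries with Ddx3y. Those 6 leave out both control libraries whose titles begin with C (C1 and C6) but keep RoraEKO C2 and C3. The study's text counts its samples by mouse, but the labels name no animal for a library, so p-values measure the spread between these samples. Over all 13147 genes tested, 5.51% passed both cutoffs (adjusted p below 0.05 and a fold change above 1.5), 2.30% higher and 3.22% lower in RoraEKO, and 12.9% had genotypes that did not overlap.

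The 6 lipoxygenase genes other than Alox5 lie on chromosome 11 (GRCm39), in a pair of clusters. Aloxe3 (69016722-69039941, + strand), Alox12b (69041472-69060618, + strand) and Alox8 (69074711-69088669, - strand) occupy 71.9 kb. Alox12 (70132283-70146221), Alox12e (70206436-70213454) and Alox15 (70234970-70242858), all on the - strand, occupy 110.6 kb, and 1044 kb separate the clusters. Alox5 lies on chromosome 6 (116387032-116438139, - strand), Sdr9c7 on chromosome 10 (127734387-127747630, + strand) and Ephx3 on chromosome 17 (32402417-32408857, - strand).

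The promoters of Alox12e and of its neighbour Alox12 are shown because these genes lie beside each other on the same strand and only the first passed the cutoffs. They are the 250 bases before each RefSeq start on GRCm38.p6, 5′ to 3′ on the gene's strand, for Alox12e at chr11:70322531-70322780 (- strand) and for Alox12 at chr11:70255371-70255620 (- strand). Capitals mark GGGCGG, the core of a GC box bound by Sp family factors.
Alox12e: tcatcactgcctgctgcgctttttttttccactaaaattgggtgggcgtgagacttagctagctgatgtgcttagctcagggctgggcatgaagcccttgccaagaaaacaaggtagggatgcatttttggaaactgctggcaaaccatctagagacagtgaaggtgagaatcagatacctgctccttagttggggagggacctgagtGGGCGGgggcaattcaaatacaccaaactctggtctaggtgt
Alox12: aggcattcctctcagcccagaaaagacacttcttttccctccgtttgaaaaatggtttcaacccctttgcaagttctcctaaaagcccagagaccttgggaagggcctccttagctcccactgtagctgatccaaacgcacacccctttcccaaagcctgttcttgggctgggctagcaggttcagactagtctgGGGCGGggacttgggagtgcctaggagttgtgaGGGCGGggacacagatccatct
The Alox12e window holds 1 GC box, 42 bases before the start, and the Alox12 window holds 2, at 55 and 22 bases before it. Of the 9 members, 7 were found in the RefSeq promoter table (not Aloxe3 and Alox15), and 6 of these 7 windows hold GGGCGG or its reverse complement CCGCCC, against 32.7% of 32851 promoter windows of the same length. AGGTCA, the half-site bound by ROR proteins and other nuclear receptors, was searched on both strands (reverse complement TGACCT) and was in none of the 7 windows, against 14% of all windows. CACGTG, an E-box bound by clock proteins, and TGAGTCA (reverse complement TGACTCA), an AP-1 motif, were likewise in none, against 6.02% and 4.46% of all windows. These matches describe the letters of short windows and not binding.

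Per kilobase of exon, most members were among the more highly expressed genes of the control libraries, and Alox5 and Alox15 were not. Levels in RPKM (CPM divided by the merged exon length in kilobases) were 69.7 ± 19.2 for Sdr9c7, 67.5 ± 18.5 for Alox12b, 41.9 ± 18.1 for Aloxe3, 26.1 ± 3.83 for Ephx3, 25.5 ± 5.75 for Alox12e, 21.7 ± 4.61 for Alox12, 7.21 ± 3.76 for Alox8, 0.412 ± 0.232 for Alox5 and 0.0432 ± 0.0439 for Alox15 (SD, n = 4). In this order the gaps between Sdr9c7 and Alox12b, Aloxe3 and Ephx3, Ephx3 and Alox12e, and Alox12e and Alox12 were smaller than the SD of one or both neighbours. The place of Aloxe3 depends on the length used, because its annotated exons merge to 6397 bases while its longest protein-coding transcript has 3019. With the latter it was at 88.8 RPKM, above Alox12b. Among 13116 tested genes with a length, 96.5% had a lower control level than Sdr9c7, 96.4% than Alox12b, 92.1% than Alox12e, 77.8% than Alox8 and 20.2% than Alox5.

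**Figure D1:**
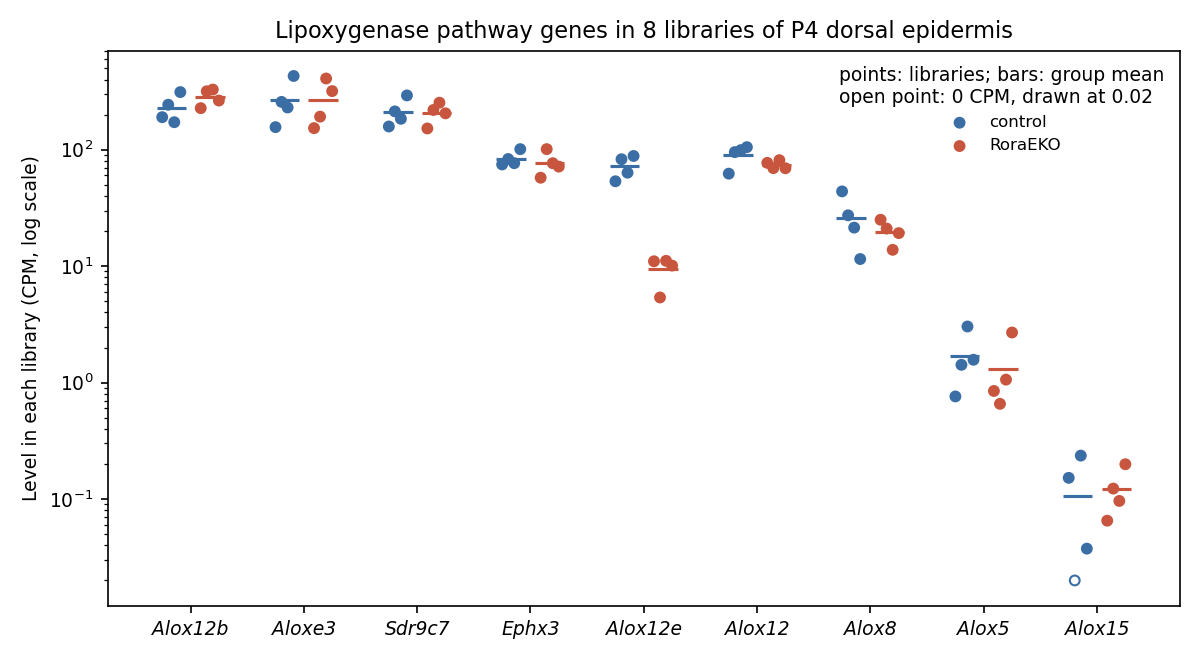
Level of each member (CPM, log axis) in the 4 control and the 4 RoraEKO libraries; points are libraries, bars are group means, and the open point is a library at 0 CPM. Alox12e is the member whose genotypes are far apart, at 53.5 to 88.2 CPM in control and 5.38 to 11.1 CPM in RoraEKO, while the other members overlap.

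The enzymes that act in sequence on acylceramides did not pass the cutoffs. Alox12b, the first of them, was at 190, 243, 172 and 312 CPM in control A1, B1, C1 and C6 and at 227, 317, 328 and 264 CPM in RoraEKO A3, B4, C2 and C3. The genotypes overlapped, with the lowest values in control and the highest in RoraEKO (log2 fold change 0.31, SE 0.228, n = 4 each; edgeR quasi-likelihood test, adjusted p = 0.512). Leaving out each library in turn gave log2 fold changes from 0.19 to 0.52.

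Aloxe3, the hydroperoxide isomerase that follows, was at 156, 257, 230 and 429 CPM in the control and at 153, 192, 408 and 318 CPM in the RoraEKO libraries. It was the most variable of the highly expressed members, with a mean of 268 CPM in both genotypes and SDs of 116 and 117 (log2 fold change -0.00, SE 0.444; edgeR, adjusted p = 0.999). Sdr9c7 was at 158, 213, 184 and 292 CPM in control and at 152, 219, 253 and 205 CPM in RoraEKO (log2 fold change -0.03, SE 0.245; edgeR, adjusted p = 0.973). Both genotypes covered nearly the same range for these 2 genes, and the sign of either fold change depended on the libraries and settings of the fit.

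Ephx3, the hydrolase of epoxy fatty acids and their alcohols, was at 74.6, 83.1, 76.5 and 101 CPM in control and at 57.4, 101, 76.5 and 71.5 CPM in RoraEKO. Its genotypes overlapped as well (log2 fold change -0.13, SE 0.195; edgeR, adjusted p = 0.795). For all 4 genes of the chain the estimated change was smaller than 1.5-fold, and the SEs of 0.195 to 0.444 on the log2 scale leave room for moderate differences in either direction, most of all for Aloxe3.

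Alox12e, which makes 12S-hydroperoxides from polyunsaturated fatty acids in keratinocytes, was lower in RoraEKO. It was at 53.5, 82.7, 63.4 and 88.2 CPM in control A1, B1, C1 and C6 and at 11, 5.38, 11.1 and 10.1 CPM in RoraEKO A3, B4, C2 and C3. Every RoraEKO library was below every control library, and the raw counts behind these values, 1340 to 2352 against 131 to 230, were well above the floor. The mean fell from 71.9 ± 16.3 to 9.38 ± 2.7 CPM (SD, n = 4 each), a 7.69-fold difference (log2 fold change -2.94, SE 0.299; edgeR quasi-likelihood test, adjusted p = 0.000313). Among the 423 genes lower in RoraEKO, it was number 19 by adjusted p and number 71 by fold change.

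The call on Alox12e held under each of the 21 alternatives, with log2 fold changes between -3.06 and -2.75 and adjusted p between 5.10e-24 and 0.00511. Most alternatives were new fits, and the rest changed only the cutoffs of the main fit. Over the 6 libraries with Ddx3y, without control C1 and C6, the log2 fold change was -2.82 (edgeR, adjusted p = 0.00511). Sample titles begin with the letter A, B or C, whose meaning the labels do not give. Within letters, the log2 ratio of the CPM values, or of their means, was -2.29 for A, -3.94 for B and -2.84 for C. For letter C, the control libraries held Xist and the RoraEKO libraries held Ddx3y, so this ratio also spans the difference in sex. RoraEKO B4 held the lowest level, and without it the log2 fold change was -2.75.

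Alox12e is transcribed in differentiated keratinocytes and skin appendages, so the marker sums of these cells stand beside it. In bulk tissue, fewer cells of a type and less RNA per cell cannot be told apart. The 7 granular markers (among them Flg, Loricrin and Ivl) summed to 11645 to 15344 CPM in control and 13278 to 17598 CPM in RoraEKO, and the 5 spinous markers to 40364 to 67656 and 82104 to 102637 CPM. The 6 sebocyte markers summed to 21.5 to 216 CPM in control and 12.3 to 78.6 CPM in RoraEKO, and the 7 hair shaft keratins to 2406 to 8883 and 4316 to 7797 CPM. Of these 25 genes 0 passed the cutoffs in the quasi-likelihood test (2 at an unadjusted p below 0.05, beside 18.2% of all genes). Casp14 and Krt10 passed in both DESeq2 and the likelihood ratio test of edgeR, Krt1 in DESeq2 (which called 7.85% of all genes), Casp14 with the title letter as a block, and 3 hair shaft keratins (Krt33b, Krt81 and Krt86) without control A1. The sums of spinous markers did not overlap and were higher in RoraEKO, and the other 3 sums overlapped. Krt1 and Krt10 made up 91.2% to 96% of the spinous sum, and the log2 fold changes of the list were 0.70 for Krt1, 0.66 for Krt10, 0.37 for Dsc1, 0.02 for Dsg1a and -0.34 for Krtdap. Log2 fold changes were above 0 for 5 of the 7 granular markers (median 0.19) and 6 of the 7 hair shaft keratins (median 0.42). They were below 0 for 5 of the 6 sebocyte markers (median -0.44). Of the other marker lists, all 5 melanocyte markers had log2 fold changes below 0 (median -0.84) and all 5 erythroid markers above 0 (median 1.94), with 3 and 4 at an unadjusted p below 0.05 and 0 past the cutoffs in the quasi-likelihood test. Tyr passed in DESeq2 and the likelihood ratio test, Dct with the title letter as a block, and 3 erythroid markers without control C6. All 5 Langerhans cell markers were below 0 as well (median -0.48) and all 5 T cell markers above 0 (median 0.43). In both of these lists 0 genes were at an unadjusted edgeR p below 0.05. The 5 basal markers summed to 151 to 470 CPM in control and to 1141 CPM in RoraEKO B4, against 189 to 285 CPM in the other RoraEKO libraries, with 0 past the cutoffs. The part of these cells in the Alox12e result was not tested.

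Alox12, the platelet-type enzyme that is also made by keratinocytes, was at 62.2, 95.2, 99.1 and 105 CPM in control and at 77, 69.4, 81.2 and 69.2 CPM in RoraEKO. Of the control libraries, 3 were above all RoraEKO libraries and A1 was below them (log2 fold change -0.28, SE 0.182; edgeR, adjusted p = 0.425). Without control A1 the log2 fold change was -0.43 with an adjusted p of 0.0458 (edgeR), still under the fold cutoff. The summed CPM of 5 platelet markers was 1.37 to 3.66 in control and 2.89 to 3.9 in RoraEKO, most of it Itga2b (1.37 to 3.44 and 2.84 to 3.61 CPM). Of the others, Gp1ba was above 0 in 5 libraries, Pf4 in 3, and Ppbp and Gp9 in 1 each. The part of platelets in the Alox12 level was not tested.

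Alox8, the 8S-lipoxygenase known for its induction by phorbol ester in mouse skin, was at 43.8, 27.3, 21.4 and 11.5 CPM in control and at 25, 21, 13.8 and 19.2 CPM in RoraEKO. The control libraries spanned the whole RoraEKO range (log2 fold change -0.40, SE 0.439; edgeR, adjusted p = 0.647). Its longest transcript shares runs of at least 50 bases, up to 72, with transcripts of 158 other genes, so some of its counts could depend on how shared reads were assigned. Alox12b, Aloxe3, Alox12e, Alox15, Alox5 and Sdr9c7 share no such run with another gene.

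The members known from leukocytes were at low levels, with Alox15 near or under the floor and Alox5 above it. Alox15, expressed in resident macrophages and eosinophils, had 4, 0, 5 and 1 counts in control and 1, 3, 2 and 4 counts in RoraEKO, and was not tested. Alox5 was at 0.76, 1.42, 3.03 and 1.57 CPM in control and at 0.847, 0.657, 1.06 and 2.69 CPM in RoraEKO, with overlapping genotypes (log2 fold change -0.36, SE 0.564; edgeR, adjusted p = 0.818). Alox5ap, which presents arachidonate to the Alox5 enzyme and was named after its values were seen, was at 0.76, 0.764, 3.36 and 1.57 CPM in control and at 1.43, 0.944, 1.4 and 1.8 CPM in RoraEKO, so that C1 was the highest control library and C3 the highest RoraEKO library for both. C1 also had the highest sum of 5 Langerhans cell markers, 182 CPM, against 60.7 to 84.4 CPM in the other 7 libraries, C3 included at 82.6 CPM. The sum of 5 T cell markers, compared after its values were seen, was highest in C1 within control (40.1 CPM) and in C3 within RoraEKO (56.8 CPM). The part of these cell types in the Alox5 level was not tested.

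Of the 9 members, 8 were tested, 0 were higher and 1 was lower in RoraEKO, beside 2.30% and 3.22% of all genes tested, and 1 had genotypes that did not overlap, beside 12.9%. The median log2 fold change of the 8 was -0.21, against -0.04 over all genes tested. Of the 8, 1 had a value above 0, beside 5777 of the 13147 genes tested. The signs of Aloxe3 and Sdr9c7 (-0.00 and -0.03) reversed in 8 and 5 of the 21 alternatives, and those of Alox5 and Ephx3 in 3 and 2.

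**Figure D2:**
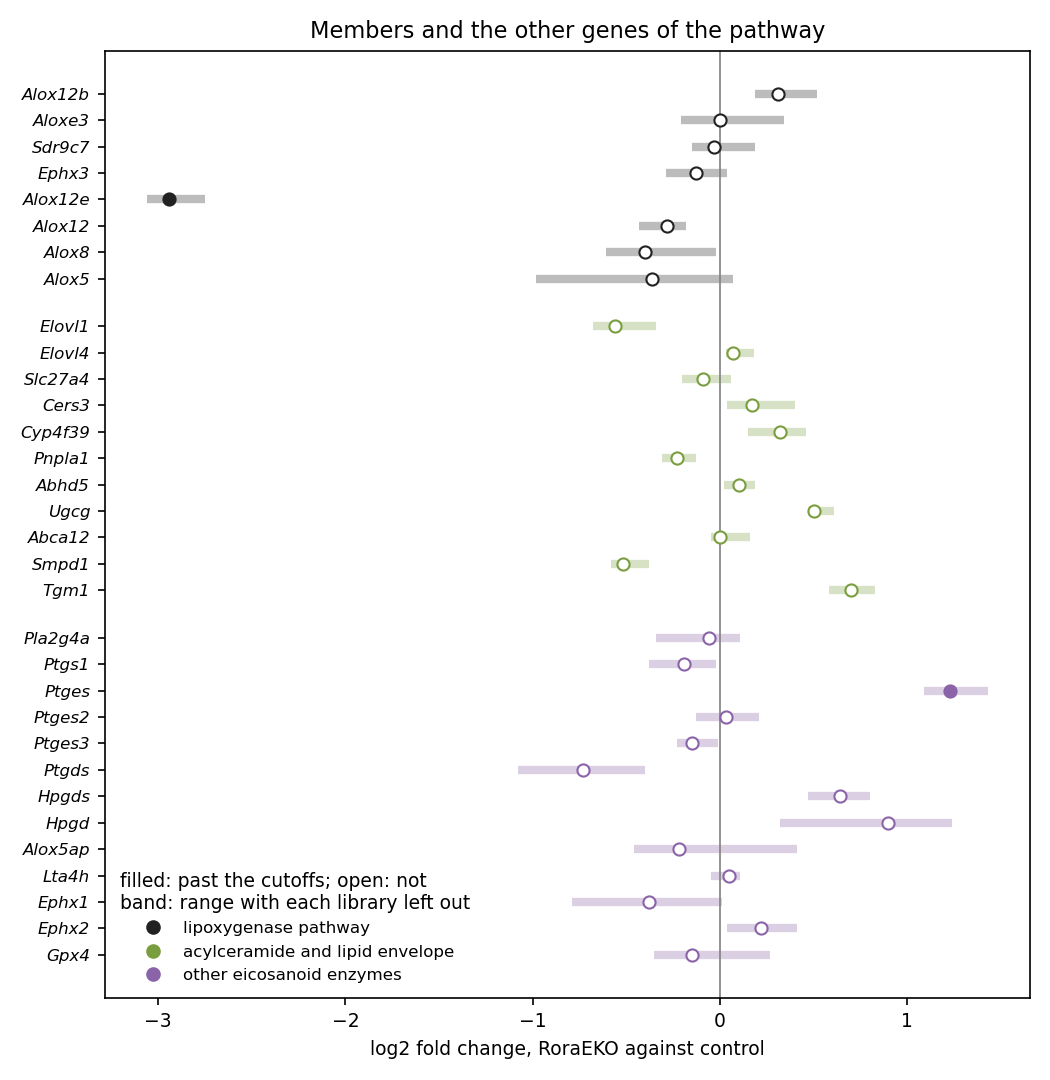
log2 fold change of RoraEKO against control for the tested members and for tested genes of 2 related lists; filled points passed the cutoffs, open points did not, and bands span the fits with each library left out. Alox12e lies at -2.94 and Ptges at 1.23, and all others lie between -0.73 and 0.90.

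The make-up of the lipoxygenase transcripts was compared as well. Expressed as a share of the summed RPKM of the 7 lipoxygenases, Alox12e made up 15%, 17%, 16.1% and 14.2% in control A1, B1, C1 and C6, and 3.22%, 1.28%, 2.08% and 2.33% in RoraEKO A3, B4, C2 and C3. Alox12b made up 41% ± 3.38 in control and 55.2% ± 5.73 in RoraEKO (SD, n = 4), with ranges of 36.3% to 44.2% and 50.7% to 63.1%. Shares sum to 100%, so a lower share of one gene raises the others. With Alox12e left out of the sum, Alox12b made up 43.2% to 52% in control and 51.9% to 64% in RoraEKO, so that the ranges overlapped. Aloxe3 held 24.7% ± 4.77 and 26.6% ± 7.59, Alox12 held 13.4% ± 2.55 and 12% ± 2.31, and Alox8 held 4.93% ± 3.4 and 3.8% ± 1.54 in control and RoraEKO. These shares rest on merged exon lengths. With the longest transcripts, a choice made after seeing the data, Aloxe3 held 37.6% ± 5.95 and 40.1% ± 9.41, Alox12b 31.7% ± 3.39 and 42.7% ± 6.55, and Alox12e 13.1% ± 1.2 and 1.87% ± 0.703. The sum over merged exon lengths was 164 ± 41.2 RPKM in control and 153 ± 27.8 RPKM in RoraEKO and overlapped.

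**Figure D3:**
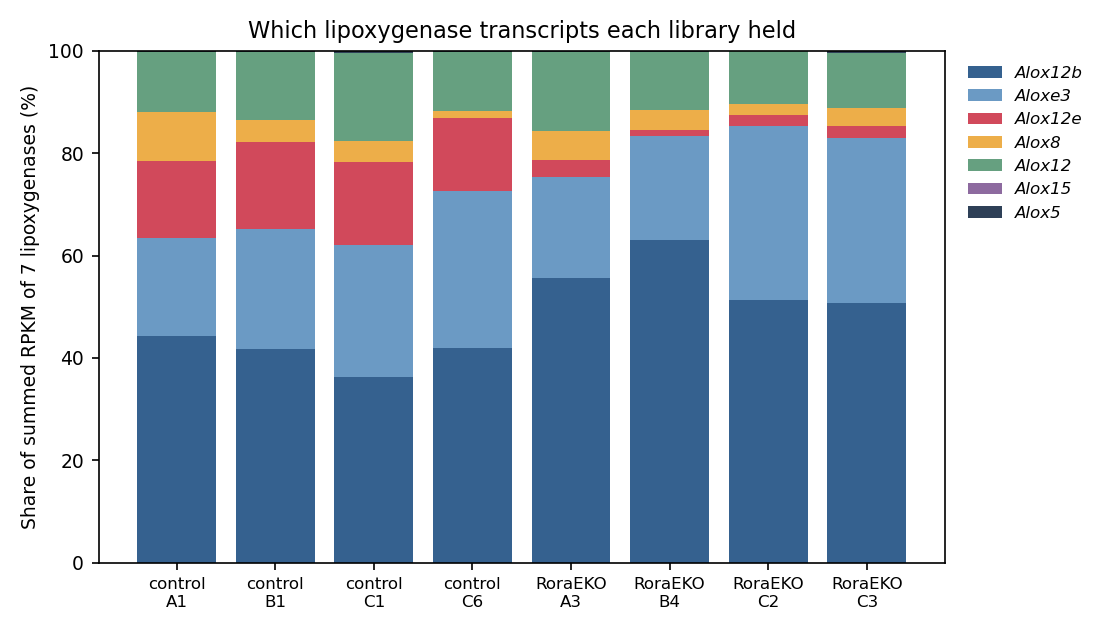
Share of each lipoxygenase gene (%) in the summed RPKM of the 7 lipoxygenases (merged exon lengths; longest transcripts raise the share of Aloxe3), 1 bar per library. The Alox12e segment takes 14.2% to 17% of the 4 control bars and 1.28% to 3.22% of the 4 RoraEKO bars.

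Because eLOX3 uses the product of 12R-lipoxygenase, the level of Aloxe3 relative to Alox12b was followed in each library. The log2 ratio of their RPKM was -1.20, -0.83, -0.49 and -0.45 in control A1, B1, C1 and C6 and -1.49, -1.64, -0.60 and -0.65 in RoraEKO A3, B4, C2 and C3. The means were -0.75 ± 0.35 and -1.09 ± 0.55 (SD, n = 4), so the difference of -0.35 was no larger than the SD of either genotype. Within each title letter the RoraEKO ratio was lower than the control ratio, by -0.29 for A, -0.81 for B and -0.15 for C on the log2 scale. The ratios of the 4 libraries of letter C lay close together, between -0.65 and -0.45, and above the libraries of letters A and B in both genotypes. With the longest transcripts as lengths all ratios moved up by the same amount, to means of 0.24 and -0.11, and the difference stayed at -0.35.

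**Figure D4:**
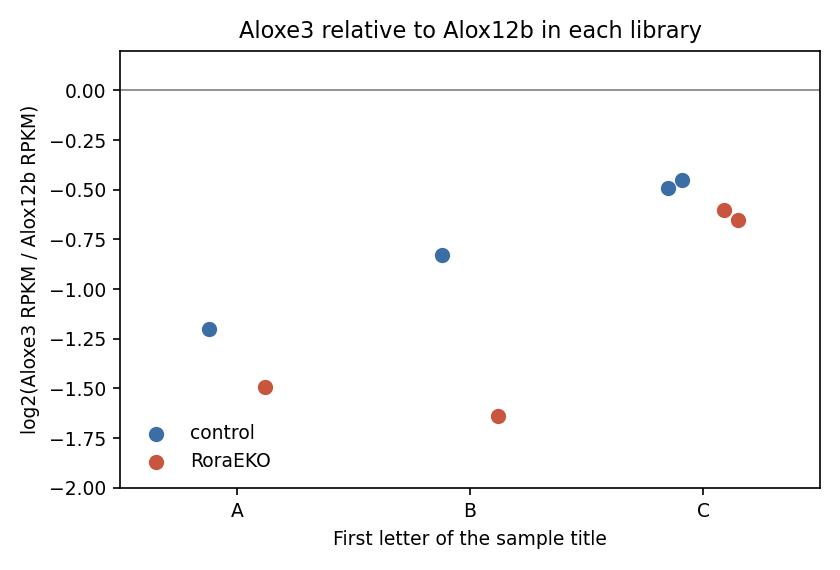
log2 ratio of Aloxe3 to Alox12b (RPKM over merged exon length) in each library, by the first letter of the sample title; points are libraries. The libraries of letter C, at -0.65 to -0.45, lie above the others, and within each letter the RoraEKO points lie below the control points.

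The genes around the members were described to show how far along the chromosome the Alox12e difference reached. Within 100 kb of a member lay 92 other annotated genes, of which 20 were tested and 1 passed the cutoffs, a share close to the 5.51% of all genes. Around the cluster of Alox12, Alox12e and Alox15, 8 other genes were tested and 0 passed in edgeR or DESeq2 (2 at an unadjusted edgeR p below 0.05, as were 18.2% of all genes tested), and their median was -0.26 on the log2 scale. The tested genes within 100 kb of Alox12e, Alox12 included, had log2 fold changes of -0.50 to -0.09, against -2.94 for Alox12e. Around Aloxe3, Alox12b and Alox8, 7 were tested and 0 passed in edgeR or DESeq2 (0 at an unadjusted edgeR p below 0.05), with a median of 0.05.

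**Figure D5:**
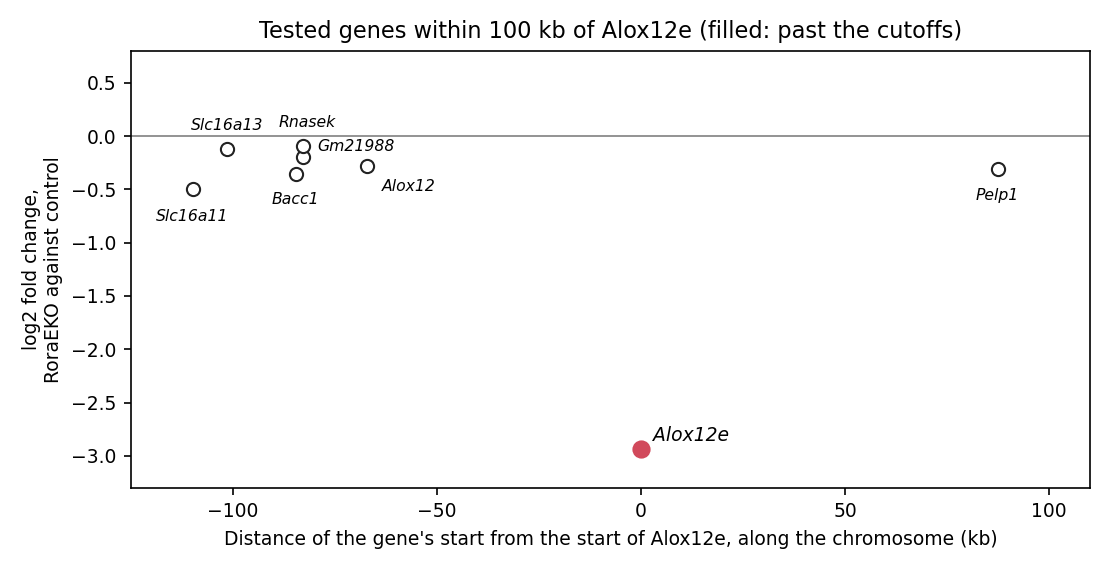
log2 fold change of RoraEKO against control for the tested genes within 100 kb of Alox12e, against the distance (kb) of each gene's start from that of Alox12e along the chromosome. Alox12e, the filled point at -2.94, is set apart from its neighbours at -0.50 to -0.09.

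The neighbour past the cutoffs was Rdh16, a retinol and sterol dehydrogenase of the same short-chain dehydrogenase superfamily as Sdr9c7, whose start lies 97.4 kb from that of Sdr9c7 on chromosome 10. It was at 1.3 ± 0.296 CPM in control and 5.66 ± 2.21 CPM in RoraEKO (SD, n = 4; log2 fold change 2.11; edgeR, adjusted p = 0.00568), while Sdr9c7 itself overlapped between the genotypes. Rdh16 passed the cutoffs under each of the 21 alternatives, the fit over the 6 libraries with Ddx3y included. Alox12b, Alox12, Alox5 and Sdr9c7 each overlap an annotated long non-coding RNA on the opposite strand that has no row in the count table. The library kit keeps the strand, but the strand setting of the counting is not given in the sources used here, so some reads of these RNAs could be included. The overlap with merged exons was 1 base for Alox12b, 300 bases for Alox12, 449 for Alox5 and 193 for Sdr9c7.

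The tested genes whose pattern over the 8 libraries was most like that of Alox12e were Tspyl4, Dbp and Syt13. Likeness was the root mean square difference of log2 CPM after centring each gene on its own mean, which was 0.252, 0.262 and 0.278. Tspyl4 was at 10.1, 22.4, 17.7 and 23.6 CPM in control and at 3.91, 1.56, 2.6 and 2.89 CPM in RoraEKO. Dbp, a circadian transcription factor of the PAR bZIP family, was at 5.06, 5.13, 3.97 and 6 CPM in control and at 0.587, 0.287, 0.529 and 0.848 CPM in RoraEKO. Syt13 was at 0.57 to 1.09 CPM in control and at the floor or under it in each RoraEKO library. These genes lie on chromosomes 10, 7 and 2, away from Alox12e. They were chosen for this likeness, which for Syt13 rests on the control libraries and on the prior count in RoraEKO.

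The list of acylceramide supply and the corneocyte lipid envelope had 12 of 12 genes tested and 0 past the cutoffs in edgeR in either direction. Of the list, 5 genes were at an unadjusted edgeR p below 0.05 (18.2% of all genes) and 1 was past the cutoffs in DESeq2. Its median log2 fold change was 0.09, against -0.04 over all genes, and 4 of its genes had genotypes that did not overlap, as did 12.9% of all genes. Elovl4, which elongates the very long fatty acid of acylceramides, was the most highly expressed, at 250 ± 15.4 RPKM in control and 263 ± 21.1 RPKM in RoraEKO. Elovl1, the elongase of saturated very long chains, was at 504, 698, 549 and 936 CPM in control and at 314, 534, 523 and 446 CPM in RoraEKO (log2 fold change -0.56, SE 0.267; edgeR, adjusted p = 0.253). Slc27a4, a fatty acid transporter with acyl-CoA synthetase activity, was at 43.7 ± 9.66 RPKM in control and 41.1 ± 4.97 RPKM in RoraEKO.

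Tgm1, the transglutaminase that cross-links the cornified envelope, was at 364, 298, 220 and 314 CPM in control and at 417, 579, 511 and 439 CPM in RoraEKO. Every RoraEKO library was above every control library (log2 fold change 0.70, SE 0.188), but the edgeR adjusted p was 0.0578, and between 0.00325 and 0.236 over the alternatives. Smpd1, acid sphingomyelinase, lay the other way, at 332, 344, 307 and 413 CPM in control and 196, 261, 283 and 233 CPM in RoraEKO (log2 fold change -0.52, SE 0.146; edgeR, adjusted p = 0.0957). Ugcg, glucosylceramide synthase, named after its values were seen, also had genotypes that did not overlap, at 167 ± 9.2 CPM in control and 236 ± 26.7 CPM in RoraEKO (log2 fold change 0.50, SE 0.0894; edgeR, adjusted p = 0.044, between 0.000428 and 0.188 over the alternatives, under the fold cutoff).

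Of 18 other enzymes of eicosanoid and oxylipin metabolism, 13 were tested in edgeR, 1 was higher and 0 were lower in RoraEKO, beside 2.30% and 3.22% of all genes, and the median was -0.06 on the log2 scale. In DESeq2 2 passed (Hpgds and Ptges), and the same 2 had genotypes that did not overlap, beside 12.9% of all genes. The gene that rose was Ptges, the inducible prostaglandin E synthase, at 60, 97.4, 87 and 94.9 CPM in control and 135, 233, 240 and 186 CPM in RoraEKO. Its genotypes did not overlap (log2 fold change 1.23, SE 0.25; edgeR, adjusted p = 0.00961). Over the 6 libraries with Ddx3y the log2 fold change was 1.38 with an adjusted p of 0.0614 (edgeR).

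Ptgs1, the constitutive cyclooxygenase upstream of Ptges, was the most highly expressed of this list in control, at 45.1 ± 12.8 RPKM in control and 39.7 ± 7.16 RPKM in RoraEKO, where Ptges was at 45.1 ± 11 RPKM. Ptgs2, the inducible cyclooxygenase, named after its values were seen, was too low to be tested, with 2, 0, 0 and 0 counts in control and 0, 10, 23 and 9 counts in RoraEKO. Ptges3, the cytosolic prostaglandin E synthase and Hsp90 cochaperone, was at 27.6 ± 3.71 and 24.9 ± 2.92 RPKM, and Gpx4, the lipid hydroperoxide reductase, at 22 ± 11.6 and 19.8 ± 6.45 RPKM. Lta4h, which makes leukotriene B4, was at 2.73 ± 0.379 RPKM in control and 2.83 ± 0.155 RPKM in RoraEKO. For Ptgs1, Ptges3, Gpx4 and Lta4h the genotypes overlapped and the edgeR adjusted p was between 0.665 and 0.907.

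Of 11 eicosanoid receptors, 5 were tested and 0 passed the cutoffs in edgeR (1 at an unadjusted p below 0.05, beside 18.2% of all genes, and 1 past the cutoffs in DESeq2), and their median was 0.14 on the log2 scale. Ltb4r1, the high-affinity leukotriene B4 receptor, was at 3.38 ± 0.819 RPKM in control and 4.12 ± 1.52 RPKM in RoraEKO, and Ltb4r2, the receptor for 12-HHT expressed by keratinocytes, at 1.77 ± 0.579 and 1.93 ± 0.617 RPKM. Ptger3, a prostaglandin E2 receptor, was at 6.31, 2.02, 1.28 and 1.8 CPM in control and 7.17, 6.28, 9.48 and 5.79 CPM in RoraEKO, so that control A1 lay within the RoraEKO range (log2 fold change 1.32, SE 0.508; edgeR, adjusted p = 0.147). Without control A1 the log2 fold change was 2.08 and Ptger3 passed the cutoffs. Ptger1 and Ptger4 were at 0.138 ± 0.0344 and 0.188 ± 0.0601 RPKM in control and overlapped between the genotypes.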

How the data were processed

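Epidermal RNA of 4 control and 4 RoraEKO samples was sequenced from strand-keeping poly(A) libraries. The authors trimmed the reads with Skewer, aligned them to GRCm39 with STAR 2.5.3a and deposited RSEM expected counts per gene. The annotation release and the strand setting of RSEM are not given in the sources used here. Members and lists were chosen with earlier results of these data known. Symbols and positions came from GENCODE release M39, which held 54749 of the 55416 identifiers, and promoters from RefSeq (GRCm38.p6).

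Expected counts were rounded to whole numbers, and filterByExpr kept 13147 genes. With TMM scaling and no covariates, the genotypes were compared by glmQLFTest in edgeR 4.0.16 (R 4.3.3), and p-values were adjusted by Benjamini-Hochberg over the whole table. A gene passed at a fold change above 1.5 and an adjusted p below 0.05. SEs were computed for the genotype difference in mean log2 CPM, with a prior count of 2. The code was tested on simulated data. The genes named were the members, of each pathway list those past the cutoffs and the 5 with the highest control RPKM, neighbours past the cutoffs, and the 3 most like Alox12e. One gene of the acylceramide list is counted but not reported here. The 21 alternatives changed the scaling, test (DESeq2 1.42.0 among them), filter, covariates, cutoffs or libraries. The smallest exact permutation p that 4 against 4 libraries allow is 0.0286, so single values were not tested further.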

Additional observations from a re-analysis of the deposited data

Results flagged for a closer look

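Alox12e in RoraEKO B4, at 5.38 CPM, lay far below the other 3 RoraEKO libraries, which were at 10.1 to 11.1 CPM. The same library had the highest sum of basal keratinocyte markers, 1141 CPM against 151 to 470 CPM in the other 7 libraries, whose part in the level was not tested. The gap of B4 in Alox12e to the nearest library was 0.834 of the range of the 4 libraries, above the 95% critical value of Dixon's test for 4 samples. Chance flags about 1 in 20 groups, and 26 groups were checked.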

How the results depend on the processing

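The call on Alox12e, and that no other member passed, held under all 21 alternatives. Counts of genes past the cutoffs in the lists moved as follows. The acylceramide list had 1 (Tgm1) with RLE size factors, DESeq2 or the likelihood ratio test, and 1 (Ugcg) without the fold cutoff, and 0 to 1 with each library left out. The other eicosanoid enzymes had 2 with DESeq2 (Hpgds and Ptges) and 0 over the libraries with Ddx3y, and 1 to 2 with each library left out (2 without RoraEKO A3, where Ptgs2 passed the filter once the RoraEKO library at 0 counts was dropped). The receptors had 1 (Ptger3) with DESeq2, and 0 to 1 with each library left out. With the title letter as a replicate block, 1 acylceramide gene (Tgm1), 2 other enzymes and 1 receptor passed, as did 420 genes higher and 579 lower over the whole table. Between genotypes, deviations of libraries with the same letter correlated at 0.0498 to 0.483 (6 of 6 pairs above 0), and of libraries with different letters at -0.517 to 0.282 (7 of 10 below 0). Deviations were centred within each genotype, so negative values between letters follow in part from positive values within letters. The letters were not taken as pairs because 1 same-letter pair was under 0.1 and the labels do not say what a letter marks. The main test therefore does not account for a block that a letter may mark. Over all genes, 302 were higher in the main analysis, against 478 with DESeq2, 182 with the Xist covariate, 147 over the libraries with Ddx3y and 131 at an adjusted p of 0.01, and 174 to 383 with each library left out (174 without control B1, 188 without RoraEKO C3). The 423 lower genes became 167 over the libraries with Ddx3y and 231 at an adjusted p of 0.01, and 283 to 513 with each library left out. Fewer libraries were fitted in the first of these and in the fits with a library left out, and the cause of the other shifts was not tested.

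Signs reversed for 4 members, none of them past the cutoffs. The log2 fold change of Aloxe3 was 0.02 with RLE or DESeq2, 0.04 over all genes with at least 1 count, 0.41 with the Xist covariate, 0.42 over the libraries with Ddx3y, and -0.21 to 0.34 with each library left out. Over the same last 3 settings, that of Alox5 was 0.34, 0.33 and -0.98 to 0.07, and that of Sdr9c7 0.18, 0.21 and -0.15 to 0.19, with 0.02 for Sdr9c7 over all genes with at least 1 count. Ephx3 was at 0.01 over the libraries with Ddx3y and at -0.29 to 0.04 with each library left out. With the longest transcript as length, Aloxe3 was at 88.8 RPKM in control and 88.7 RPKM in RoraEKO, Alox12 at 30.1 and 24.7 RPKM, and the mean log2 ratio of Aloxe3 to Alox12b at 0.24 and -0.11.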

Other observations

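The order of the libraries by Alox8 level, within the control and within the RoraEKO group, was also the order of 3 of the 7 hair shaft keratins, Krt31, Krt33b and Krt85. Over all genes tested, 281 of 13147 (2.14%) had that order. The comparison was chosen after the values were seen.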
